A study of Saccharomyces cerevisiae with 16 samples.

Results

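The genes described here encode the core folding machinery of the yeast cytosol: HSP82 and HSC82 (Hsp90), SSA1, SSA2 and SSA4 (Hsp70), HSP104 (a disaggregase) and the co-chaperones STI1, YDJ1, SIS1 and FES1. These 10 genes were picked by a list of identifiers, drawn up with earlier results of these data known, and all 10 were listed in each of 4 deposited tables, which together held 6885 features. In both tables made with the compound 3MBPP1, the Hsp70 gene SSA2 passed the authors' test and was lower in condition B than in condition A. The J-domain gene YDJ1 was also lower in condition B of the 3MBPP1 table of hrr25as cells. No member passed the test in either table made with the compound CMK.

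Hsp70 proteins of the Ssa family bind short hydrophobic stretches of unfolded chains and release them in an ATP cycle. The J-domain proteins Ydj1 and Sis1 deliver clients and speed ATP hydrolysis, Fes1 releases the nucleotide, and Sti1 bridges Hsp70 to Hsp90, which finishes the folding of clients such as kinases. Hsp104 pulls chains out of aggregates together with Hsp70. In yeast, SSA2 and HSC82 are transcribed in unstressed cells, while HSP82 and especially SSA4 are induced by heat. This induction runs through the factor Hsf1, which binds arrays of inverted GAA units called heat shock elements. Msn2 and Msn4 bind a second sequence, the stress response element.

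By their strain labels, all cells carried deletions of his3, leu2 and ura3 and a kanMX4 deletion of chromosomal HRR25. HRR25 is the gene of the essential yeast casein kinase 1, and the cells lived on a plasmid copy of it. Also by label, WT cells had HRR25 on pRS316 and hrr25as cells had the I82G form on pRS315. The hrr25is cells had a form that combines I82G with I23C, also on pRS315. Marker reads of some libraries did not match these labels, as given below. There were 16 samples in 8 groups of 2: WT with DMSO or 3MBPP1, hrr25as with DMSO or 3MBPP1, a second WT set with DMSO or CMK, and hrr25is with DMSO or CMK. Cultures in YPD at 30°C and an OD600 of 0.3 were split and treated for 1 hour, at doses not given in the sources used here. RNA depleted of ribosomal RNA was sequenced as single-end reads of 100 bp. The titles name 3MBPP1 for 4 of the samples, while the treatment protocol of every sample names DMSO or CMK. The labels do not say whether the replicates were separate cultures, and p-values therefore cover no more than the spread among these libraries.

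Each deposited table compares a condition A with a condition B, and its header does not say which is DMSO, so every change below is written as condition B over condition A. The whole read counts of the 2 libraries behind each mean were recovered from the means and size factors. The libraries of a condition could be told apart only as the one with the larger and the one with the smaller size factor, and values are given in that order. Counted reads per library lay between 10505164 and 13998631 for WT with 3MBPP1, 4275991 and 6592340 for hrr25as, 9568820 and 34122412 for WT with CMK, and 16815301 and 34122412 for hrr25is. Values are relative to the other RNAs of a library, so fewer cells making an RNA and less of it per cell cannot be told apart. Small nucleolar and small nuclear RNAs took 31.4% to 38.2% of reads in the first of these and 5.14% to 18.1% elsewhere.

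One library stood apart. The library of 34122412 reads was listed as a condition B library in both CMK tables, with the same count for all 6760 features, so there were 15 distinct libraries. It held 1629 RPM (reads scaled to the library's counted total) of URA3, the marker of the WT plasmid, and 0.44 of LEU2, the marker of the mutant plasmids, whereas the remaining hrr25is libraries held 2.48 to 5.23 of URA3 and 75.4 to 85.8 of LEU2. Calls and changes of the CMK tables are therefore given both with it and, by limma, without it. The WT libraries of the 2 sets also differed in markers, although their strain labels are the same. In the 3MBPP1 set LEU2 lay between 38.6 and 54.4 RPM, against a labelled leu2 deletion, and in the CMK set between 0.132 and 1.67. URA3 lay between 91.0 and 120 RPM in the 3MBPP1 set and between 1541 and 1843 in the CMK set, and HRR25 between 117 and 166 and between 691 and 864. MET17 and LYS2 were at 271 to 459 and 45.6 to 51.2 RPM in the 3MBPP1 set and at no more than 1.25 and 1.36 in the CMK set. The libraries of the 3MBPP1 set are therefore called WT only as labelled, here and in the difference between hrr25as and WT. The hrr25as libraries in that difference held 71.5 to 99.4 RPM of LEU2, and their table did not list URA3, LYS2 or MET17. Whether these strains differed in more than Hrr25 was not tested.

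The sequences upstream of the genes are shown first, because most of the members are known as Hsf1 targets and they differ in their matches to the heat shock element. A search of the 500 bases before each start codon, on both strands, looked for 3 units in turn (GAANNTTCNNGAA or TTCNNGAANNTTC), for 2 units (GAANNTTC or TTCNNGAA, which every match of 3 units also holds) and for the stress response element (AGGGG or CCCCT). A match of 3 units was found in 6 of the 10 members, SSA1, SSA2, HSP104, STI1, SIS1 and FES1, and in 1.48% of 6000 such windows in the genome. All 10 members and 35.2% of windows held a match of 2 units. The stress response element was in HSP82, SSA1, SSA4 and HSP104 and in 34.1% of windows, and none of its 10 matches in the members overlapped a match of 2 units. These are matches of letters and not measured binding sites. The search took only exact units with 2 bases between them, so units at other spacing or with a changed letter were not counted.

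The stretches of SSA1, SSA2, SSA4, YDJ1, HSP82 and HSC82 are printed on the strand of the gene, from the RefSeq genome of assembly R64, which corresponds to the sacCer3 build that the submitters' processing notes name. Capitals mark the GAA and TTC units of the matches of 3 units where a gene has one (SSA1 and SSA2), and otherwise of 2 units, at least 100 bases before the start codon.
SSA1, chrI:141660-141815, minus strand: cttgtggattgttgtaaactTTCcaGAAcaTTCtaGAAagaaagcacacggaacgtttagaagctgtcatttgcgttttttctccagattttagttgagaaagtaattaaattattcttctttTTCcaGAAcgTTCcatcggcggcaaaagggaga
SSA2, chrXII:97686-97738, minus strand: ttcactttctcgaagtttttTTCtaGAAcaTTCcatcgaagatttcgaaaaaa
SSA4, chrV:364316-364363, plus strand: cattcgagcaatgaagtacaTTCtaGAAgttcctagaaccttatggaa
YDJ1, chrXIV:507405-507452, minus strand: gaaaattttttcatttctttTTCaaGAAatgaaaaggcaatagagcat
HSP82, chrXVI:98833-98880, minus strand: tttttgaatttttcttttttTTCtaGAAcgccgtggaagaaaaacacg
HSC82, chrXIII:632118-632197, plus strand: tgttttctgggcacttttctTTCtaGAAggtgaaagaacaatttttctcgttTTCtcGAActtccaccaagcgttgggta

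Reads of the paralogues can be hard to tell apart, so the coding sequences were compared next. SSA1 (YAL005C, chrI:139503-141431) and SSA2 (YLL024C, chrXII:95566-97485) were identical at 96.4% of aligned bases, with an unbroken run of 383 bases at coding positions 403 to 785. Of all 100-base windows of SSA1, 45.8% were also in SSA2, and a read from such a window fits both genes. HSP82 (YPL240C, chrXVI:96496-98625) and HSC82 (YMR186W, chrXIII:632355-634472) were identical at 91.7% of aligned bases, and 0.69% of the 100-base windows of HSP82 were also in HSC82. SSA4 (YER103W, chrV:364589-366517) was 74.9% identical to SSA1 and 75.2% to SSA2 and shared no 100-base window with either. The sources used here do not give how reads that fit several genes were counted, so values of SSA1 and SSA2 are uncertain to that extent. The other members were HSP104 (YLL026W, chrXII:88623-91349), STI1 (YOR027W, chrXV:381053-382822), YDJ1 (YNL064C, chrXIV:505868-507097), SIS1 (YNL007C, chrXIV:618507-619565) and FES1 (YBR101C, chrII:443821-444693), which shared no 100-base window with another place in the genome. No member had a second exon or overlapped another annotated gene. The 60-base stretches of each pair with the most differing bases, 9 for SSA1 and SSA2 and 14 for HSP82 and HSC82, are printed with the differing bases in capitals, because a read across them can be placed.
SSA1, chrI:139712-139771, minus strand: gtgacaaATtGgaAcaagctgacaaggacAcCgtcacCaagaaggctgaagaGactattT
SSA2, chrXII:95766-95825, minus strand: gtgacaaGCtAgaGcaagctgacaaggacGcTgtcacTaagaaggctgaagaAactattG
HSP82, chrXVI:97347-97406, minus strand: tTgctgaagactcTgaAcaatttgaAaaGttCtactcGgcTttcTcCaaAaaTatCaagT
HSC82, chrXIII:633562-633621, plus strand: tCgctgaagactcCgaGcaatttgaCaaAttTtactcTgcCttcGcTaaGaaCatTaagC

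The members covered a wide range of levels. Levels are given as RPKM, here with coding length and with the library's reads on protein-coding genes as the total, a unit chosen because the share of small nucleolar RNA differed between tables. SSA2 had the highest median over the 15 libraries at 2260 (range 537 to 2861), followed by HSC82 at 1792 (912 to 2854). The order of these genes did not hold: SSA2 was above HSC82 in 8 of 15 libraries. SSA1 came next with a median level of 695 (324 to 1584), below HSC82 in all 15 libraries. The places of SSA2 and SSA1 depend on how reads that fit both genes were counted, which is not given. HSP104 at 479, HSP82 at 437, YDJ1 at 382, STI1 at 372 and SIS1 at 307 formed a middle band, in which each gene was above the next in 11 of 15 libraries except YDJ1, which was above STI1 in 6. FES1, at 145 (78.7 to 280), was below SIS1 in all 15 libraries. SSA4, the heat-induced Hsp70 gene, was lowest at 63.0, and its range of 17.9 to 239 spanned 13.4-fold, against 2.04-fold for YDJ1 and 5.33-fold for SSA2. The levels also differed between the tables: SSA2 lay between 537 and 995 in the 4 libraries of the 3MBPP1 table of WT and between 1211 and 2861 in the other 11, and HSP82 lay between 221 and 277 in the CMK table of WT and between 359 and 762 elsewhere. Tables differ in strain, compound and the RNA make-up of their libraries, and these cannot be told apart as sources of such a difference.

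**Figure D1:**
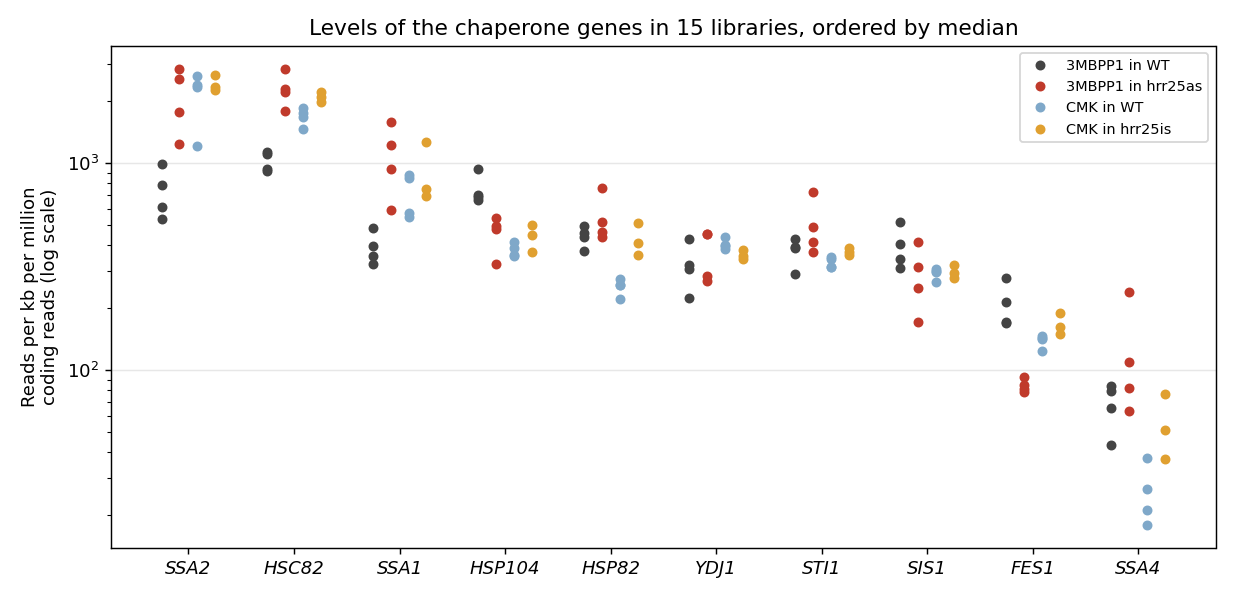
Level of each gene in each of the 15 libraries, in RPKM over reads on protein-coding genes, on a log axis, with genes ordered by median and points coloured by table. SSA2 and HSC82 lie at the top with medians of 2260 and 1792, and SSA4 lies lowest and spreads most, from 17.9 to 239.

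The 2 tables made with 3MBPP1 ask how the transcriptome differed between a treated and an untreated culture, once with unmodified and once with I82G Hrr25. In WT, 1 of the 10 members, SSA2, passed the authors' test at an adjusted p under 0.05, and it was lower in condition B. The test called 7.37% of all 6834 features, 4.59% as lower and 2.78% as higher. In hrr25as cells, 2 of the 10 members, SSA2 and YDJ1, passed, both lower in condition B, where 4.31% of 6258 features were called, 3.12% as lower and 1.2% as higher. With so few members, counts of 1 and 2 do not set the group apart from these shares. The median deposited log2 fold change of the members was -0.41 in WT and -0.66 in hrr25as, against 0.00 and 0.02 over all features, and 7 of the 10 were below 0 in each table. On the scale of total counted reads, the members' medians were -0.18 and -0.33 and those of all features 0.21 and 0.33.

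**Figure D2:**
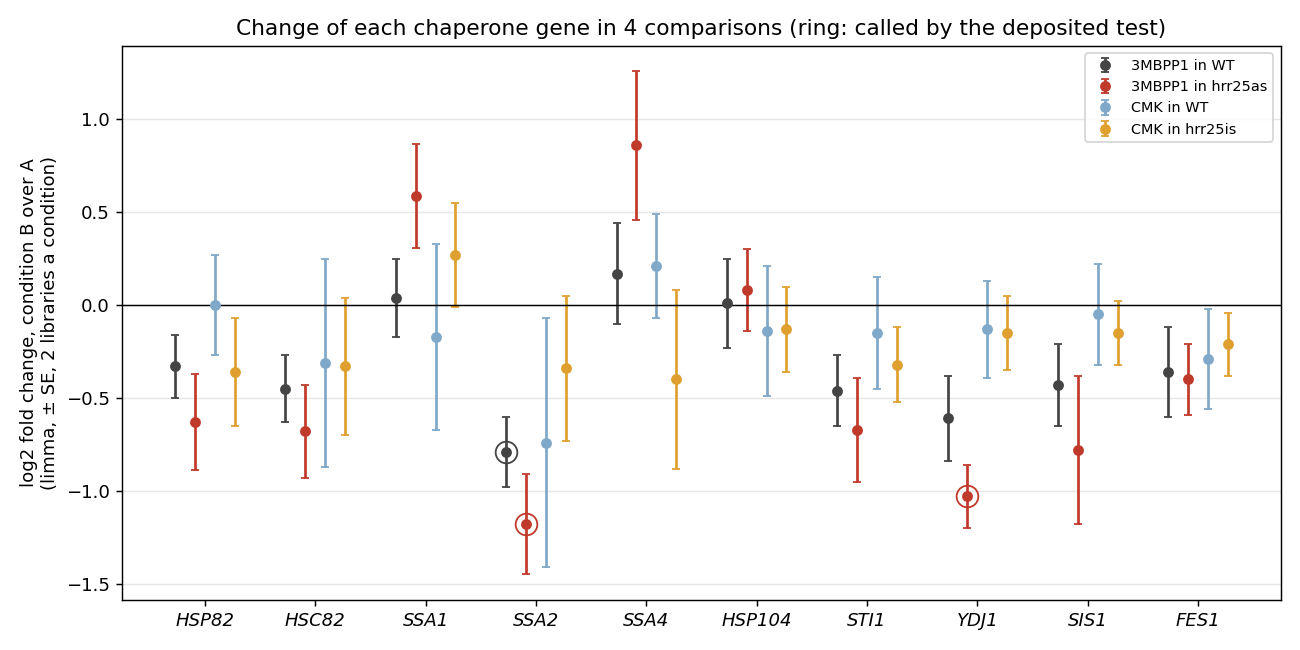
Log2 fold change of each gene, condition B over condition A, in the 4 comparisons, as fitted by limma to the recovered reads with 2 libraries a condition. Bars are 1 SE and rings mark the 3 changes that the authors' deposited test called: SSA2 in WT with 3MBPP1, and SSA2 and YDJ1 in hrr25as with 3MBPP1.

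SSA2 encodes an Hsp70 that is abundant in unstressed cells. In WT with 3MBPP1, its normalised counts were 12649 and 10336 in condition A and 7319 and 5954 in condition B. Both libraries of condition B lay below both of condition A, and so did 26.7% of all features. The authors' deposited table gave a log2 fold change of -0.79 with an adjusted p of 0.00666, and limma on the recovered reads gave -0.79 ± 0.19 (SE) with an adjusted p of 0.0481, from 2 libraries a condition. Limma called 8.41% of features in that table and, of the members, SSA2 alone. In hrr25as cells, SSA2 counts were 28757 and 27520 in condition A and 10158 and 15089 in condition B. The groups again did not overlap, as for 23.9% of features in that direction. The authors' deposited table gave -1.16 with an adjusted p of 0.00243. Limma gave -1.18 ± 0.27 (SE) with an adjusted p of 0.0797, so the call in hrr25as was lost with that test, which called 3.45% of features and 1 member, YDJ1. In WT, the limma call was lost without either library of condition A (adjusted p 0.31 and 0.158) and without the smaller of condition B (0.0851).

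SSA1, its close paralogue, was not called in either 3MBPP1 table. In WT with 3MBPP1 its normalised counts were 5094 and 4305 in condition A and 5838 and 3961 in condition B, and the groups overlapped. In hrr25as cells they were 9415 and 6443 in condition A and 10112 and 13657 in condition B, so both libraries of condition B were above both of condition A, as for 24.4% of features. The authors' deposited table gave SSA1 log2 fold changes of 0.06 (adjusted p 0.974) and 0.58 (adjusted p 0.786). SSA4 counts were 1008 and 576 in condition A and 999 and 734 in condition B of WT. In hrr25as cells they were 637 and 889 in condition A and 901 and 2064 in condition B, where the library with the smaller size factor was above the other 3 of that table. The authors' deposited table gave 0.13 (adjusted p 0.981) and 0.96 (adjusted p 0.905) for SSA4.

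The level of SSA2 relative to SSA1 within a library does not depend on scaling, and this ratio was chosen after the values were seen, so it is described without a test. In WT with 3MBPP1 the SSA2 to SSA1 level ratio was 2.49 and 2.41 in condition A and 1.26 and 1.51 in condition B. In hrr25as it was 3.07 and 4.29 in condition A and 1.01 and 1.11 in condition B. In the CMK table of WT it was 4.16 and 3.13 in condition A and 2.66 and 2.22 in condition B, the 2.66 being the library listed in both tables. In hrr25is it was 3.54 and 3.25 in condition A and 1.85 in the condition B library of its own. The ratio was thus lower in condition B, without overlap, in each of the 4 tables. Ratios of SSA2 to other features did so often: the ratio of SSA2 to each other feature was lower in condition B without overlap for 80.7%, 86.5%, 37.9% and 42.3% of features in these tables, and in the 4 tables together for 16.3% of 6240. Ratios of SSA1 to each other feature were higher in condition B without overlap in all 4 tables for 0.833%. The CMK tables share a library in these counts. Reads that fit both genes enter this ratio in a way that was not tested.

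**Figure D3:**
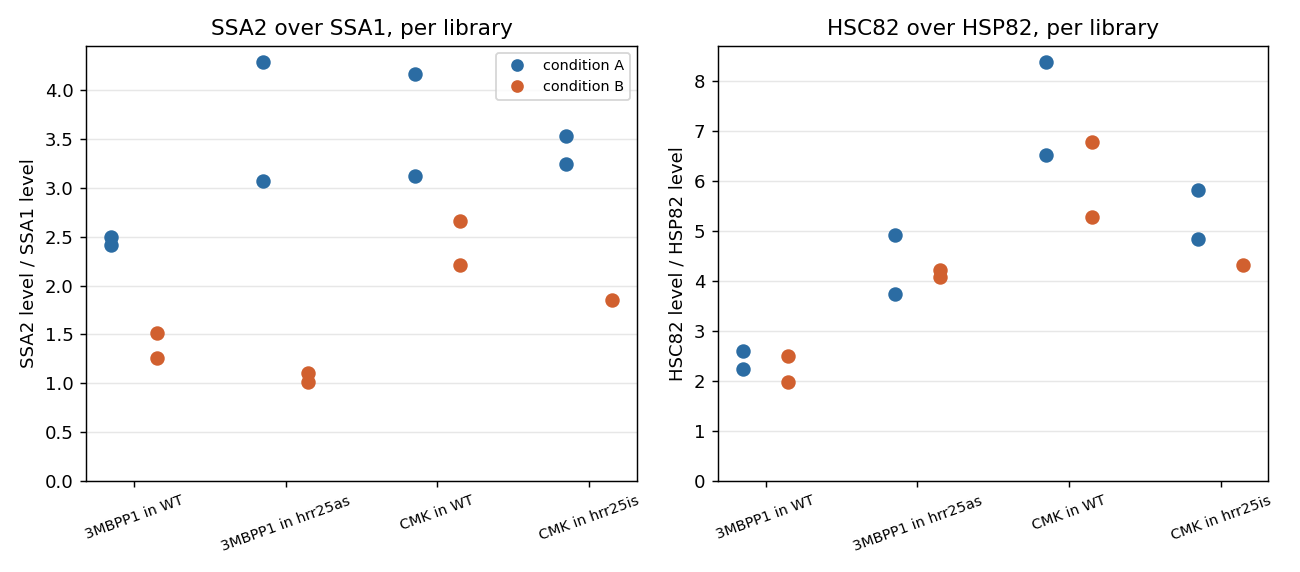
Level of SSA2 over SSA1 (left) and of HSC82 over HSP82 (right) in each of the 15 libraries, by table and condition, on linear axes from 0. The SSA2 to SSA1 ratio is lower in condition B in each table, from 3.07 and 4.29 to 1.01 and 1.11 in hrr25as with 3MBPP1, while HSC82 to HSP82 ratios overlap in 3 of the 4 tables.

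The Hsp90 genes were lower in condition B of both 3MBPP1 tables without passing the test. HSC82, the Hsp90 gene active in unstressed cells, had normalised counts of 15599 and 16546 in condition A and 11995 and 11489 in condition B of WT. In hrr25as cells its counts were 31640 and 27312 against 16267 and 20803. Neither pair of groups overlapped, and the authors' deposited table gave log2 fold changes of -0.45 (adjusted p 0.109) and -0.67 (adjusted p 0.196). HSP82, its heat-induced partner, had counts of 6979 and 6417 against 6104 and 4621 in WT, and of 8497 and 5576 against 4008 and 4953 in hrr25as. Its deposited log2 fold changes in the authors' deposited table were -0.32 (adjusted p 0.525) and -0.65 (adjusted p 0.474). HSC82 was 1.98 to 2.59 times the level of HSP82 in the libraries of WT and 3.74 to 4.93 times in those of hrr25as, with the conditions overlapping in both.

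Among the co-chaperones, YDJ1, which encodes a J-domain partner of Ssa proteins, had counts of 3485 and 2620 in condition A and 2471 and 1588 in condition B of WT. In hrr25as cells its counts were 2920 and 3163 in condition A and 1414 and 1568 in condition B, where both libraries held about the same and both were below condition A. The authors' deposited table gave YDJ1 -0.59 (adjusted p 0.505) in WT and -1.03 (adjusted p 0.0213) in hrr25as. Limma gave -1.03 ± 0.17 (SE) with an adjusted p of 0.0406 in hrr25as, and the call was lost without either library of condition A (adjusted p 0.0627 and 0.145). STI1, the bridge between Hsp70 and Hsp90, had counts of 5070 and 4797 against 4299 and 2978 in WT and 6729 and 4145 against 3744 and 2931 in hrr25as. Its groups did not overlap in either table, with log2 fold changes in the authors' deposited table of -0.44 (adjusted p 0.429) and -0.70 (adjusted p 0.62).

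SIS1, an essential J-domain protein, had counts of 3640 and 2516 against 2676 and 1898 in WT and 1382 and 2490 against 776 and 1496 in hrr25as, with overlap in both tables. FES1, the nucleotide exchange factor, had counts of 1617 and 1012 against 1156 and 857 in WT, which overlapped, and 422 and 398 against 294 and 329 in hrr25as, which did not. HSP104 counts were 12627 and 12916 against 15921 and 10404 in WT and 6843 and 4996 against 6319 and 6032 in hrr25as, and the groups overlapped in both. For these genes the authors' deposited table gave log2 fold changes from -0.77 to 0.06 and no adjusted p under 0.719. Over the 10 members, both libraries of condition B were below both of condition A for 5 in WT and 6 in hrr25as, against 26.7% and 23.9% of features, and above for 0 and 2, against 27% and 24.4%. These counts rest on the table's scaling, and members of one pathway are not independent of each other.

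In the 3MBPP1 table of WT, the libraries also differed in their small nucleolar RNA. The larger library of each condition held 31.4% and 31.6% of such reads and the smaller 38.2% and 38.0%. In both conditions, 8 of the 10 members were higher in the library with the lower share, as were 29.1% of all features. Between libraries of like share, SSA2 was lower in condition B by log2 ratios of -0.79 and -0.80, YDJ1 by -0.50 and -0.72 and HSC82 by -0.38 and -0.53. HSP104 had ratios of 0.33 and -0.31 and SSA1 of 0.20 and -0.12, which differ in sign. These pairs were formed after the shares were seen and hold 1 library a condition, so no test was made.

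**Figure D4:**
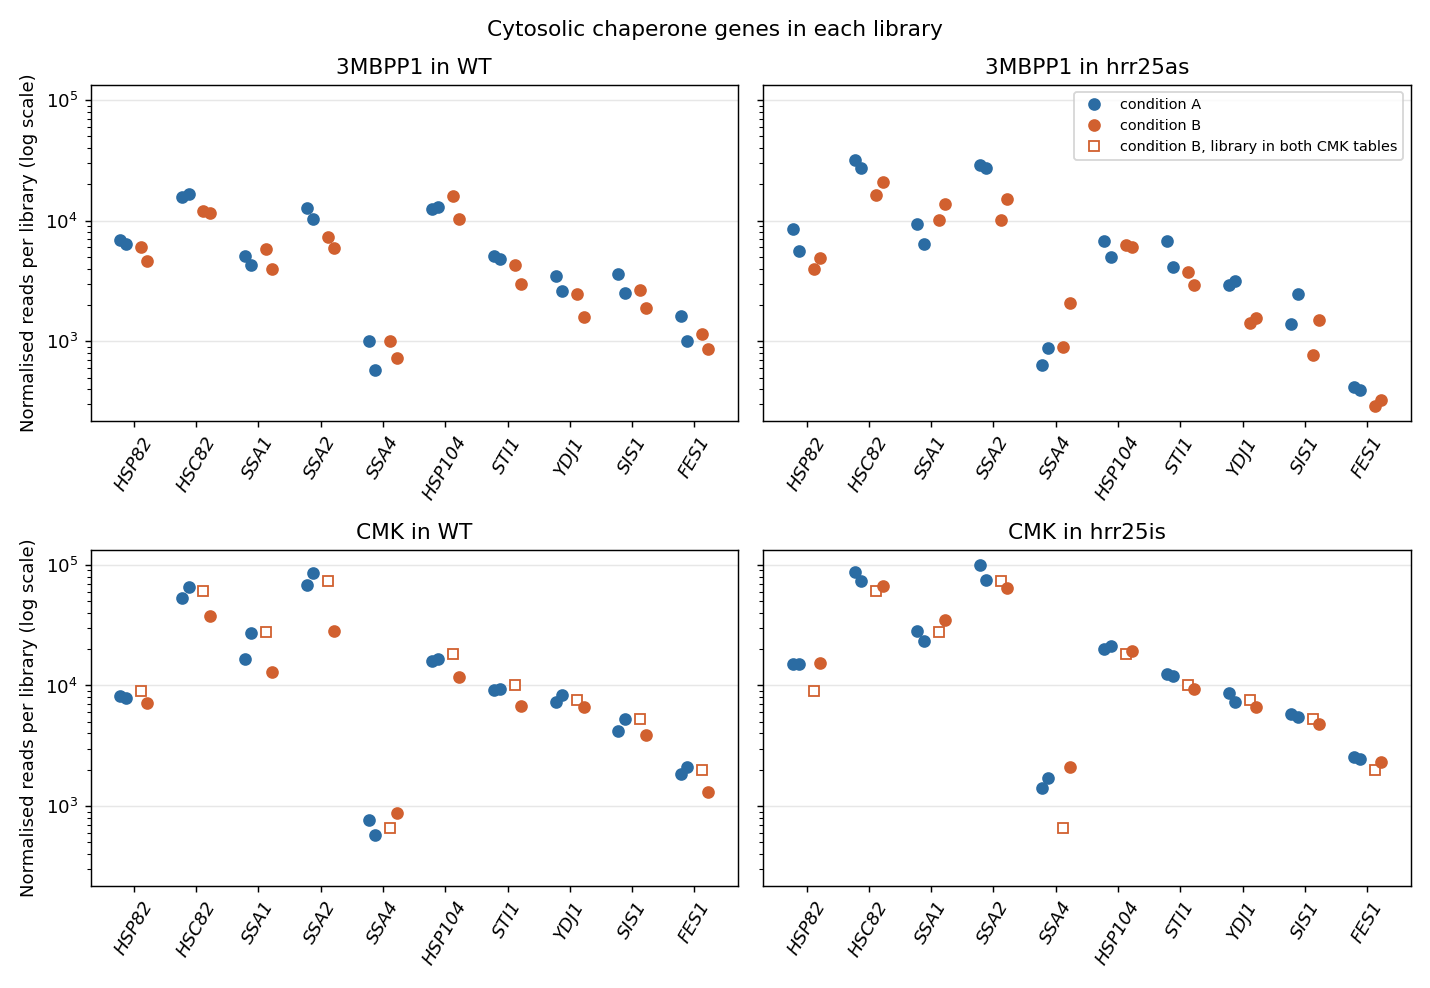
Normalised reads of each gene in each library of the 4 tables, on a log axis shared by all panels, with condition A in blue and condition B in orange. The open square is the library listed in both CMK tables. On this scale, SSA2 shows separated conditions in both 3MBPP1 panels, as do HSP82, HSC82, STI1 and YDJ1. In RPKM over protein-coding reads, the conditions overlap for HSP82 in both, for YDJ1 in WT and for STI1 in hrr25as. SSA4 in hrr25is has its lowest value, 663, in the open square.

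Whether the change differed between hrr25as and the libraries labelled WT, whose markers do not match that label, was asked with limma as an interaction of strain and condition over 6246 features, of which 0.0961% were called. No member was called, and 0 of 10 had an unadjusted p under 0.05, against 684 of all features. For SSA2, the hrr25as change minus the WT change was -0.39 on the log2 scale with a 95% interval from -1.21 to 0.43. YDJ1 differed by -0.42 (-1.16 to 0.32), SSA1 by 0.56 (-0.33 to 1.44) and SSA4 by 0.69 (-0.62 to 2). The limma adjusted p-values of the 10 members lay between 0.685 and 0.986. Intervals of this width hold differences of more than 1 log2 unit for SSA1, SSA2, SSA4 and YDJ1, so the calls in hrr25as are not shown to differ from WT.

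In the CMK table of WT, no member passed the authors' test, which called 0.133% of 6760 features, all higher in condition B. At an unadjusted p under 0.05 the count was 0 of 10, and limma also called 0 members, and 0% of features. The groups of all 10 members overlapped, whereas 12.6% of features were above and 12.8% below without overlap. SSA2 had the widest spread, with counts of 68090 and 85018 in condition A and 73046 and 28331 in condition B, where the 73046 belongs to the library listed in both tables. The authors' deposited table gave SSA2 -0.59 with an adjusted p of 1. Without the shared library, limma gave -1.43 ± 0.52 (SE), with an adjusted p of 0.051, while it called 11.4% of all features. That fit rests on a single library of condition B, which is assumed to vary like condition A. Under it, SSA1 was at -0.72 ± 0.39 (SE, limma adjusted p 0.232), HSC82 at -0.64 ± 0.51 (0.435) and FES1 at -0.60 ± 0.31 (0.2), and 0 members were called. HSP104 and STI1 were both at -0.45, SIS1 at -0.27, YDJ1 at -0.24 and HSP82 at -0.16. With the shared library, the authors' deposited table gave -0.11 for SSA1, -0.28 for HSC82, -0.26 for FES1, -0.10 for HSP104 and -0.12 for STI1. SIS1 was at -0.04, YDJ1 at -0.13 and HSP82 at 0.01 there. The remaining library of condition B was below both of condition A for 9 members and 41.6% of features, and above for 1 member, SSA4, and 43% of features. These counts rest on the table's scaling. In RPKM over protein-coding reads, that library was above both of condition A for HSP82, YDJ1 and SIS1 as well. For SSA1, SSA2, HSC82, HSP104, STI1 and FES1 it stayed below both. SSA4 was the one member above 0 in both fits, at 0.21 in the authors' deposited table and 0.41 ± 0.32 (SE) without the shared library.

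In the CMK table of hrr25is, no member passed the authors' test, which called 0.0444% of 6760 features, 0.0296% as lower and 0.0148% as higher. Again 0 of 10 had an unadjusted p under 0.05, and limma called 0 members and 0% of features. Both libraries of condition B were below both of condition A for 6 members, HSC82, SSA2, HSP104, STI1, SIS1 and FES1, and for 17.7% of features. They were above for 0 members and 17.4% of features. These counts include the shared library, and without it the remaining library of condition B was below both of condition A for those 6 members and YDJ1, and for 39.6% of features. It was above for HSP82, SSA1 and SSA4 and for 39.9% of features. All of these counts rest on the table's scaling. In RPKM over protein-coding reads, this library was above both of condition A for HSC82, HSP104, YDJ1, SIS1 and FES1 as well. HSC82, for example, was at 2208 there, against 2087 and 1986 in condition A. SSA2 and STI1 lay between the libraries of condition A on that scale. SSA2 counts were 99756 and 75363 in condition A and 73046 and 63888 in condition B, and the authors' deposited table gave -0.35 (adjusted p 1). Without the shared library, limma gave SSA2 -0.44 ± 0.53 (SE, adjusted p 0.664), and it called 12.8% of features and 0 members. The values of STI1, HSC82, YDJ1, SIS1, FES1 and HSP104 without it were -0.38, -0.26, -0.25, -0.21, -0.10 and -0.09. With it, in the authors' deposited table, they were -0.32, -0.33, -0.15, -0.15, -0.21 and -0.13.

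For HSP82 and SSA4 the shared library set the sign in hrr25is. HSP82 counts were 14945 and 15175 in condition A and 8939 and 15487 in condition B, and the 8939 belongs to the shared library. Its log2 fold change was -0.30 in the authors' deposited table and 0.04 ± 0.30 (SE, limma) without that library. SSA4 counts were 1409 and 1721 in condition A and 663 and 2103 in condition B, with 663 in the shared library. The authors' deposited table gave SSA4 -0.18 (adjusted p 1), and without that library limma gave 0.43 ± 0.21 (SE, adjusted p 0.185). With the shared library as the sole library of condition B, SSA4 was at -1.23 by limma. That value sets a library with WT plasmid markers against hrr25is libraries, so strain and compound cannot be told apart in it. SSA1 counts were 28337 and 23296 against 27593 and 34621. Its log2 fold change was 0.27 in the authors' deposited table and 0.43 ± 0.36 (SE, limma) without the shared library.

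The change with CMK in hrr25is minus that in WT was fitted on the 7 distinct libraries, with the shared one counted as WT. It was not called for any member or for any of 6760 features (0%), and the limma adjusted p was 0.998 for each member. At an unadjusted p under 0.05 the counts were 0 of 10 members and 374 of all features. The intervals were wide: SSA2 differed by 0.30 (95% interval -1.76 to 2.36), SSA1 by 0.60 (-1.04 to 2.25) and YDJ1 by -0.12 (-0.89 to 0.64). Without the shared library, limma gave SSA2 at 0.98, SSA1 at 1.15 and YDJ1 at -0.02. That fit holds 1 library of condition B in each strain, so its error comes from condition A alone.

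Other chaperone genes were read from lists of their functions. Among 7 ribosome-associated chaperones, which meet chains as they leave the ribosome, 3 passed the authors' test in WT with 3MBPP1, all lower in condition B, and 2 in hrr25as, where 7.37% and 4.31% of all features were called. In WT the count was 2 with limma, 1 on total counted reads, and 1 to 4 without single libraries, with 1 left without either library of condition A. In hrr25as it was 2 with limma, 1 on total counted reads and 2 to 4 without single libraries. SSB1, an Hsp70 of the ribosome, had counts of 8250 and 8202 against 3904 and 2766 in WT and 9990 and 12194 against 3464 and 2894 in hrr25as. The authors' deposited table gave SSB1 -1.30 (adjusted p 1.32e-10) and -1.80 (adjusted p 2.83e-06). Its near copy SSB2 was at -0.91 (adjusted p 5.58e-05) and -1.43 (adjusted p 0.000383) in the authors' deposited table, and reads of this pair may also be split uncertainly. EGD2, a subunit of the nascent chain complex, was at -0.58 (adjusted p 0.0235) in the authors' deposited table of WT, and its limma adjusted p of 0.0641 did not pass. The median of this list was -0.50 and -0.69.

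Of 11 Hsp90 partners, PPT1, a phosphatase that acts on Hsp90, was lower in both 3MBPP1 tables, at -0.87 (adjusted p 0.000416) and -1.04 (adjusted p 0.0301) in the authors' deposited tables, and the list medians were -0.02 and -0.05. In each table the limma count of this list fell from 1 to 0 without either library of condition A and on total counted reads. Of 6 small heat shock and sorting genes with their regulator HSF1, HSP26 was higher in hrr25as, with counts of 312 and 225 against 751 and 620 and a deposited value of 1.35 (adjusted p 0.0033) in the authors' deposited table. That limma call was lost without the smaller library of condition A and on total counted reads. In WT, HSP26 counts were 214 and 224 against 1104 and 407, and the authors' deposited table gave 1.79 (adjusted p 0.444). The other lists had 0 calls in each of the 3MBPP1 tables: 9 genes of the Hsp70 and Hsp110 system, 8 of the TRiC chaperonin and 6 of folding in the endoplasmic reticulum. Their medians lay between -0.30 and 0.03. With CMK, 0 genes of these lists were called by the authors' test in either table. Without the shared library, where limma called 11.4% and 12.8% of features, CPR6 (-0.90, adjusted p 0.0453) and EGD1 (-1.22, adjusted p 0.00508) were called in WT. In hrr25is the limma calls were SSB1 (-1.22, adjusted p 0.0119), SSB2 (-1.27, adjusted p 0.0104), AHA1 (0.77, adjusted p 0.0184) and HSP26 (0.72, adjusted p 0.0124), each from 1 library of condition B.

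The members did not vary as 1 block. Over the 15 libraries, with values centred in each table, Pearson's r of a member with the mean of the other 9 was 0.93 for FES1, 0.85 for SSA2, 0.82 for HSC82, 0.77 for HSP82 and YDJ1, 0.70 for SIS1 and 0.67 for STI1. HSP104 was at 0.46, SSA1 at 0.22 and SSA4 at -0.32. Libraries share depth and scaling in these values, which are a description without a test. The values were not centred by condition, so r also holds the differences between conditions A and B given above. Of 4629 features with a mean of at least 100 reads in each table, the 5 most like the mean of the 10 members were ERO1 (r = 0.94), LAA1 (0.91), HSP78 (0.90), ASN1 (0.90) and NAN1 (0.88). ERO1 encodes the oxidase of disulfide formation in the endoplasmic reticulum, HSP78 a mitochondrial disaggregase and ASN1 an asparagine synthetase.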

How the data were processed

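The authors deposited 4 comparison tables, 1 for each strain and compound. The tools named in the submitters' processing notes are STAR 2.3.0, HTSeq 0.6.0 and CASAVA 1.8.2, with sacCer3 as the build. The strand setting and the treatment of reads that fit several genes are not given in the sources used here. Per the file headers, each table holds the mean normalised count signal of condition A and of condition B, their ratio as a fold change, its log2, and the p-value and adjusted p-value of a DESeq comparison. The deposited signal is an average of 2 libraries divided by their size factors.

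Every condition mean was solved for the pair of whole read counts behind it. All means of the 4 tables gave 1 solution, with at least 1 read per library. The deposited test, at an adjusted p under 0.05 over the whole table, was the main test. The plan named a count test if the files held counts; they hold means, so the deposited test was used. Limma 3.58.1 in R 4.3.3, with trend, was fitted to log2(reads / size factor + 0.5) over all features as an alternative, and as the main test of the strain differences, with Benjamini-Hochberg adjustment. Limma was tested on simulated data: it called 92% of features planted with a log2 change of 1 for WT with 3MBPP1 (6834 features), 84% for hrr25as (6258), 51% and 90% for WT and hrr25is with CMK (6760 each), and 59% and 11% for the strain differences with 3MBPP1 (6246) and CMK (6760). All simulated features of a table shared a single spread, the median over its features. Changes were planted only in features above a floor of mean reads. These rates therefore do not give the power for single members, whose spread can be wider. An exact permutation test of 2 against 2 libraries cannot go below 0.333. Sequences came from the RefSeq R64 genome.

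The members and lists were chosen with earlier results of these data known. All 10 members were named, with genes of other lists that the deposited test called (at most the 4 largest by list and table), the 5 features most like the members' mean, and the markers HRR25, URA3 and LEU2. Replicate numbers could not be tied to the libraries.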

Additional observations from a re-analysis of the deposited data

How the results depend on the processing

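Counts of members called by the authors' test (1 in WT with 3MBPP1, 2 in hrr25as, 0 with CMK) depended on the test and on single libraries. Limma, with a pseudocount of 0.5 or of 5, called 1 member in hrr25as. On total counted reads it called 0 members in WT and 0 in hrr25as with 3MBPP1. Of all features it then called 364 of 6834 and 70 of 6258, against 575 and 216 with size factors. That scale moves the median of all features by 0.21 and 0.31. Re-adjusting the deposited p-values over features with a mean of at least 10 kept the authors' counts of members. Leaving out 1 library at a time changed which members limma called in both 3MBPP1 tables and in hrr25is with CMK. The number of all features called moved with the library left out as well, so these shifts do not set the members apart. Without the larger library of condition B in WT, SSA2, STI1 (-0.73, adjusted p 0.0158) and YDJ1 (-0.93, adjusted p 0.0209) were called. In hrr25as, SSA4 was called higher at 1.46 (adjusted p 1.69e-05) without the larger library of condition B, and SIS1 lower at -1.26 (adjusted p 0.000478) without the smaller. Each such fit leaves a condition with 1 library, which is assumed to vary like the others, and its cause was not tested. SSA2 and YDJ1 kept their direction in both 3MBPP1 tables under all alternatives run. So did HSP82, HSC82, STI1, SIS1 and FES1, which the authors' test did not call.

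Some values that passed no test changed sign. On total counted reads, SIS1 was at 0.07 in WT with CMK, and HSP104, YDJ1, SIS1 and FES1 were at 0.19, 0.16, 0.17 and 0.10 in hrr25is. For HSP82 in WT with CMK limma gave 0.00 with either pseudocount. Of the strain differences, FES1 with 3MBPP1 moved to 0.07 on total reads, and with CMK STI1, YDJ1 and SIS1 moved to 0.06, 0.17 and 0.12. A z test of the deposited CMK values, which count the shared library in both tables, gave -0.31 for HSP82, -0.06 for HSC82, -0.39 for SSA4 and -0.02 for HSP104.

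Leaving out libraries in turn, signs changed within these ranges. In WT with 3MBPP1, SSA1 ran from -0.24 to 0.32, SSA4 from -0.24 to 0.57 and HSP104 from -0.30 to 0.32, and in hrr25as HSP104 ran from -0.15 to 0.31. In WT with CMK the range was -0.16 to 0.16 for HSP82, -0.64 to 0.03 for HSC82, -0.72 to 0.38 for SSA1, -0.45 to 0.18 for HSP104, -0.45 to 0.14 for STI1, -0.27 to 0.17 for SIS1 and -0.60 to 0.01 for FES1. In hrr25is it was -0.75 to 0.04 for HSP82 and -1.23 to 0.43 for SSA4. Strain differences with 3MBPP1 ran from -0.60 to 0.01 for HSP82, -0.24 to 0.37 for HSP104, -0.56 to 0.14 for STI1, -0.83 to 0.12 for SIS1 and -0.37 to 0.30 for FES1. With CMK they ran from -0.12 to 0.20 for HSP82, -0.29 to 0.38 for HSC82, -0.38 to 0.98 for SSA2, -0.27 to 0.37 for HSP104, -0.52 to 0.07 for STI1, -0.38 to 0.05 for SIS1 and -0.11 to 0.49 for FES1.

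The median level of the members was an RPKM of 399 over protein-coding reads and 303 over all reads. No paired analysis was possible because the deposited means carry no replicate numbers. The planned fits with edgeR and DESeq2 were not run, since the tables hold averaged values and no column of counts.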
